A study of Bos taurus with 8 samples.

Results

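The miR-181 family was represented by 4 bovine mature entries in the small RNA of rumen fluid, bta-miR-181a, bta-miR-181b, bta-miR-181c and bta-miR-181d, taken by name from the deposited tables. They are 4 of 399 bovine entries and 4 of 565 entries in all, since human names were also searched. The fluid came from 4 non-lactating Holstein cows with a rumen cannula and a mean age of 10 years, which served as control animals in a parallel study. Each cow was sampled on day 7 of a forage diet with 0% concentrate (forage), and again on the first day with 65% concentrate in the dry matter (high-grain, HG) after a step-wise adaptation, 4 h after the morning feeding on both diets. Free fluid of the ventral sac was used, and 1 library per cow and diet gave 4 libraries on forage and 4 on HG, with no untreated or time-matched group beside them, so that the diet cannot be told apart from the order of sampling.

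MiRNAs of the miR-181 family carry the same seed, the short stretch near the 5′ end through which a miRNA pairs with its target mRNAs. The family is best known from lymphocytes and the thymus, where miR-181a promotes differentiation of the B lineage and raises the sensitivity of the T-cell receptor by repressing phosphatases such as PTPN22 and DUSP6. It is also needed for the development of natural killer T cells. Other tissues express the family too, so that its presence in a fluid does not name a cell of origin. In bulk fluid, fewer cells of a type and less RNA per cell cannot be told apart.

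The libraries held 300116 to 522804 miRNA reads each. HG replicate 2 stood apart from the other libraries, as it lay above all other 7 libraries for 134 of 377 entries tested and below all of them for 115. Diet means, the summed share and the correlations of the members are therefore given with and without it, as are the diet means of the leukocyte miRNAs named. Libraries with the same number on both diets were taken as the same cow from the labels alone, because the study numbers the cows in another order in one place and the libraries themselves did not show the pairing.

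The deposited coordinates (UMD3.1) placed the members at 3 clusters. Bta-miR-181a and bta-miR-181b, the members with many reads, each come from a pair of hairpins. On chromosome 16 (minus strand), mir-181a-1 gives the mature miRNA at chr16:79685955-79685978 and mir-181b-1 at chr16:79685795-79685818, with their starts 160 bases apart. On chromosome 11 (plus strand), mir-181a-2 lies at chr11:95709449-95709472 and mir-181b-2 at chr11:95710641-95710664, 1192 bases apart. The tables list 1 locus for each entry and library. For each of these members it was the chromosome 11 copy in 5 libraries and the chromosome 16 copy in 3. In HG replicates 2 and 4 the listed chromosome differed between the members, so the reads could not be assigned to one hairpin. Bta-miR-181c and bta-miR-181d, the members with few reads, have a single hairpin each on chromosome 7 (plus strand), at chr7:12915090-12915113 and chr7:12915272-12915294, with starts 182 bases apart.

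In the RefSeq annotation of ARS-UCD2.0, used for the order of genes only, the chromosome 16 pair (MIR181A-1 and MIR181B-1) lies between PTPRC, which encodes the leukocyte phosphatase CD45, and NR5A2, which encodes a nuclear receptor. MIR181A-2 and MIR181B-2 lie inside NR6A1, another nuclear receptor gene. MIR181C and MIR181D lie inside NANOS3, a gene of the germ line, with MIR23A, MIR27A and MIR24-2 close by.

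Bta-miR-181a was the most abundant member in each of the 8 libraries. On forage it had 959, 887, 740 and 616 reads in replicates 1 to 4, or 1941, 1697, 1623 and 1856 RPM (reads scaled to 1000000 miRNA reads of the library). On HG it had 515, 710, 714 and 660 reads, or 1716, 2112, 1827 and 1701 RPM. The highest library was HG replicate 2, with a 95% Wilson interval of 1963 to 2273 RPM that met the interval of the next highest, forage replicate 1 (1822 to 2067 RPM). The means were 1779 ± 145 RPM on forage and 1839 ± 191 RPM on HG (SD, n = 4 each), and the values of the diets overlapped. Without replicate 2 the mean on HG was 1748 ± 69.0 RPM (n = 3). The counting error of single libraries was 57.0 to 79.3 RPM, below the SD of either diet but not below that of HG without replicate 2. Among the bovine entries of a library bta-miR-181a ranked 63rd to 72nd, and 12 to 23 distinct sequences were assigned to it.

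Bta-miR-181b, which differs from bta-miR-181a outside the seed, stood about an order of magnitude lower. Its forage libraries held 97, 97, 75 and 51 reads (196, 186, 164 and 154 RPM) and its HG libraries 52, 55, 80 and 85 reads (173, 164, 205 and 219 RPM). The means were 175 ± 19.4 RPM on forage and 190 ± 26.0 RPM on HG (SD, n = 4 each), and 199 ± 23.4 RPM on HG without replicate 2 (n = 3). Here the counting error of a library, 18.8 to 24.0 RPM, was about as large as the spread between cows, so that differences between single libraries were hardly resolved at this depth. Unlike bta-miR-181a, it did not have its highest value in HG replicate 2. It ranked 130th to 147th among bovine entries.

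Bta-miR-181c was listed in all 8 libraries, at the edge of detection. It had 8, 7, 11 and 2 reads on forage and 7, 2, 7 and 9 reads on HG. This gave means of 14.9 ± 7.48 RPM on forage and 17.6 ± 8.16 RPM on HG (SD, n = 4 each), and 21.5 ± 3.09 RPM on HG without replicate 2 (n = 3). The counting error of single libraries was 4.21 to 8.82 RPM. Bta-miR-181d was listed in 4 libraries, with 4 reads in forage replicate 1, 7 in forage replicate 3, 5 in HG replicate 2 and 2 in HG replicate 3. Every listed entry had at least 2 reads per distinct sequence, so an entry that was not listed may still have had single reads. Bta-miR-181d was thus listed in 2 libraries of each diet, and no value is given for the others.

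The order of the levels was therefore bta-miR-181a, then bta-miR-181b, then bta-miR-181c and bta-miR-181d together. The ranges of bta-miR-181a (1623 to 2112 RPM) and bta-miR-181b (154 to 219 RPM) did not overlap, and neither did those of bta-miR-181b and bta-miR-181c (5.95 to 24.1 RPM). Bta-miR-181c and bta-miR-181d (5.12 to 15.3 RPM where listed) overlapped and changed places in HG replicate 2. As the mature miRNAs span 23 or 24 bases in the deposited coordinates, no scaling for length was made.

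**Figure D1:**
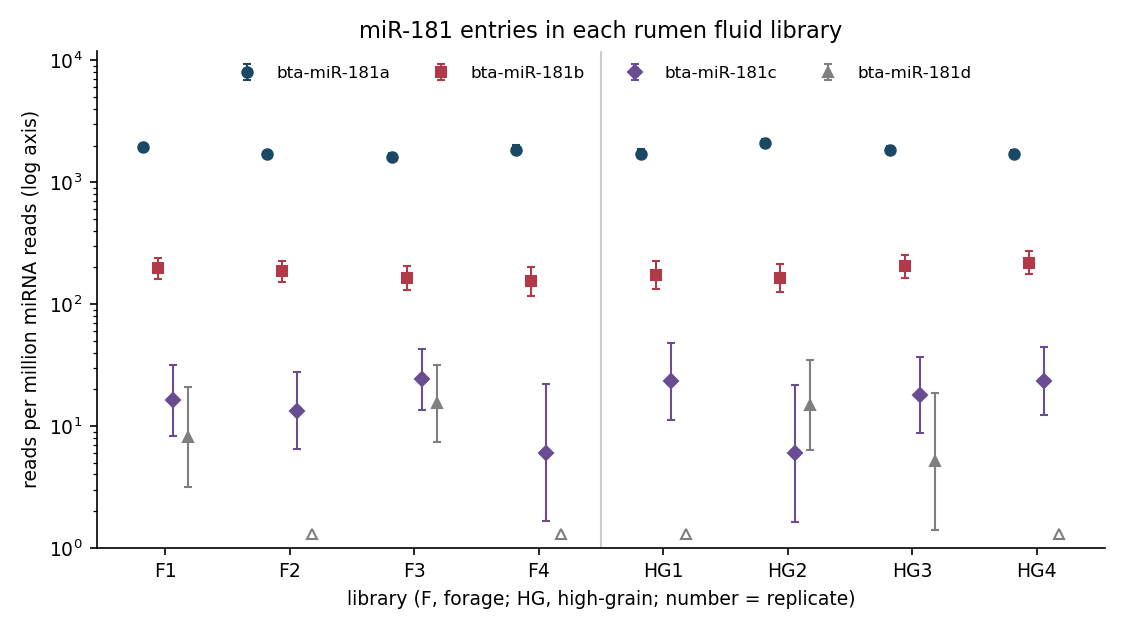
RPM of miRNA reads (log axis) of the 4 miR-181 entries in each library (F, forage; HG, high-grain), with 95% Wilson intervals for counting error. Open triangles at the bottom mark the 4 libraries in which bta-miR-181d was not listed. Bta-miR-181a lay between 1623 and 2112 in each library and bta-miR-181b between 154 and 219.

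Together, the 4 members took 0.197% ± 0.0147 of the miRNA reads on forage and 0.205% ± 0.0174 on HG (SD, n = 4 each). The forage libraries held 1068, 991, 833 and 669 family reads, a share of 0.216, 0.190, 0.183 and 0.202%. The HG libraries held 574, 772, 803 and 754, a share of 0.191, 0.230, 0.205 and 0.194%. The diets overlapped, and HG replicate 2 was the highest library. Without it the share on HG was 0.197% ± 0.00750 (n = 3). As a share of the reads left after the authors' quality filters the family ranged more widely, from 0.0135 to 0.0633%, beside a miRNA share of 6.67 to 29.3% of these reads per library.

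Within the family, bta-miR-181a held 89.8% ± 1.55 of the reads (SD, n = 8), from 87.5 to 92.1% in single libraries. Bta-miR-181b held 9.11% ± 1.31, bta-miR-181c 0.827% ± 0.406 and bta-miR-181d 0.264% ± 0.332, with the last set to 0 where it was not listed. The ratio of bta-miR-181a to bta-miR-181b was 9.89, 9.14, 9.87 and 12.1 on forage and 9.90, 12.9, 8.93 and 7.76 on HG. Both the highest and the lowest ratio were thus found on HG, in replicates 2 and 4.

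These shares depend on how reads with several matches were counted. The deposited tables also give divided reads, in which a read is split among its matches. For bta-miR-181a each divided read stood for 3 reads in all 8 libraries, for bta-miR-181b for 3.68 to 4.00, for bta-miR-181c for 1 and for bta-miR-181d for 2. With divided reads the share of bta-miR-181c in the family rose to 2.48% and that of bta-miR-181b fell to 7.07%. The normalized values of the authors rest on the divided reads, and so members cannot be compared with each other on that scale. The human entries hsa-miR-181a-5p, hsa-miR-181b-5p and hsa-miR-181d-5p held the same reads as the bovine entries in every library (5801, 592 and 18 in sum) and are no separate measurements. No opposite arm of a miR-181 hairpin was listed.

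The comparison of the diets asks whether the change from forage to HG was met by a change of these miRNAs in the fluid. It did not detect one for any member tested. Bta-miR-181a, bta-miR-181b and bta-miR-181c entered the fit across the 377 entries that reached 10 reads in any library. Bta-miR-181c passed this minimum only through the 11 reads of forage replicate 3, and bta-miR-181d, with at most 7 reads, did not pass it. Of the 377 entries 268 are bovine, and together they hold 283 distinct read profiles, as human names can repeat bovine reads. Counts and shares over all entries include such copies. Values are given as CPM, counts scaled to 1000000 reads of these 377 entries after TMM normalization, with each read counted at every entry it matches, in which HG replicate 2 had the lowest normalization factor, 0.921 beside 1.003 to 1.02.

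Bta-miR-181a stood at 1248, 1109, 1056 and 1203 CPM on forage and at 1111, 1580, 1179 and 1108 CPM on HG. It was higher on HG in replicates 2 and 3 and lower in replicates 1 and 4. The mean was 1154 ± 87.5 CPM on forage and 1244 ± 226 CPM on HG (SD, n = 4 each), and 1133 ± 39.9 CPM on HG without replicate 2 (n = 3), below the mean on forage. The log2 fold change of HG over forage was 0.10 (SE 0.13, 95% interval −0.22 to 0.41), with an adjusted p of 0.830 by edgeR's quasi-likelihood test with Benjamini-Hochberg adjustment. It turned to −0.039 when replicate 2 was left out on both diets.

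Bta-miR-181b stood at 126, 121, 107 and 99.6 CPM on forage and at 112, 122, 132 and 143 CPM on HG. It was higher on HG in 3 of 4 cows, as were at least 3 of 4 cows for 30.8% of all entries tested. The count includes replicate 2, with 121 and 122 CPM, which was lower on HG in RPM (186 and 164) and in the authors' normalized values (19.7 and 18.6), so that on those scales it was higher on HG in replicates 3 and 4 alone. Its log2 fold change was 0.17 (SE 0.16, 95% interval −0.22 to 0.55, edgeR's adjusted p = 0.796), and the diets overlapped. It stayed above 0 with each replicate left out in turn, between 0.039 and 0.27.

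Bta-miR-181c stood at 10.4, 8.75, 15.7 and 3.91 CPM on forage and at 15.1, 4.45, 11.6 and 15.1 CPM on HG. It was higher on HG in replicates 1 and 4 and lower in replicates 2 and 3. With so few reads its log2 fold change of 0.23 (SE 0.56, edgeR's adjusted p = 0.890) had a 95% interval of −1.16 to 1.62, which leaves room for a change of more than 1 on the log2 scale in either direction. It became −0.21 without replicate 4, 0.11 without replicate 1, 0.42 without replicate 2 on both diets, and 0.46 without HG replicate 2 and without the cow as a block.

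Of the 3 members tested, 0 were called at an adjusted p under 0.05, beside 0% of all 377 entries. At an unadjusted p under 0.05, 0 of the 3 members and 9 of the 377 entries (2.39%) passed edgeR's test, and DESeq2 called 0 entries with 3 at an unadjusted p under 0.05. In 0 of the 3 members did the CPM of the diets separate without overlap, which was the case for 4.51% of all entries. All 3 fold changes were above 0, as were 55.7% of all entries. The 95% intervals of bta-miR-181a, bta-miR-181b and bta-miR-181c all included 0. The median log2 fold change over all entries was 0.03 and the median standard error 0.18, so that bta-miR-181a and bta-miR-181b were measured somewhat more precisely than the typical entry and bta-miR-181c less.

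**Figure D2:**
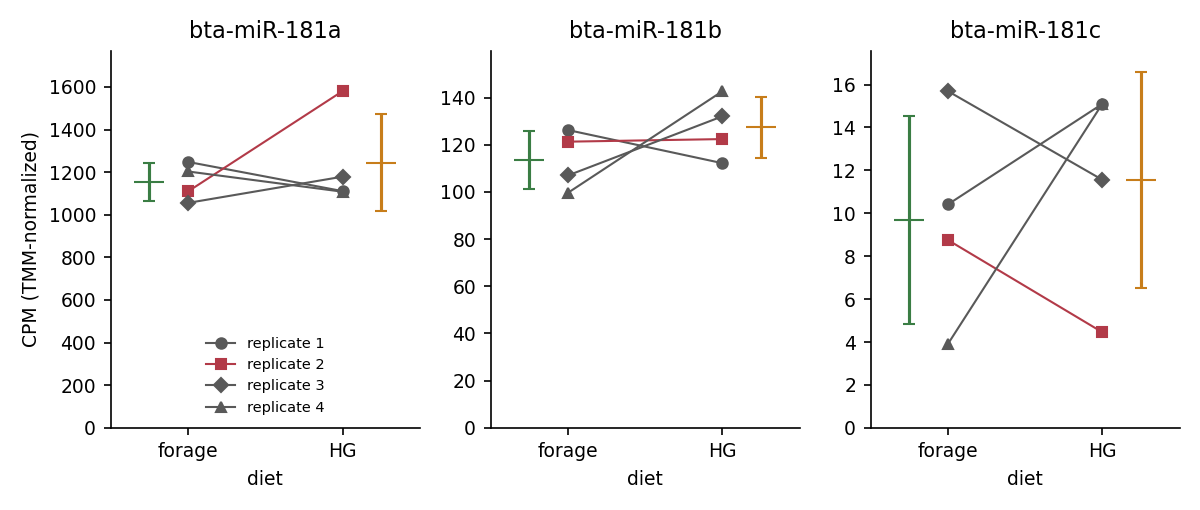
TMM-normalized CPM of bta-miR-181a, bta-miR-181b and bta-miR-181c on forage and HG, with lines that join libraries of the same replicate number (replicate 2 in red) and, at the sides, the mean and SD of each diet (n = 4). The lines run in both directions for each member, and HG replicate 2 of bta-miR-181a (1580 CPM) lies above the other 7 libraries.

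**Figure D3:**
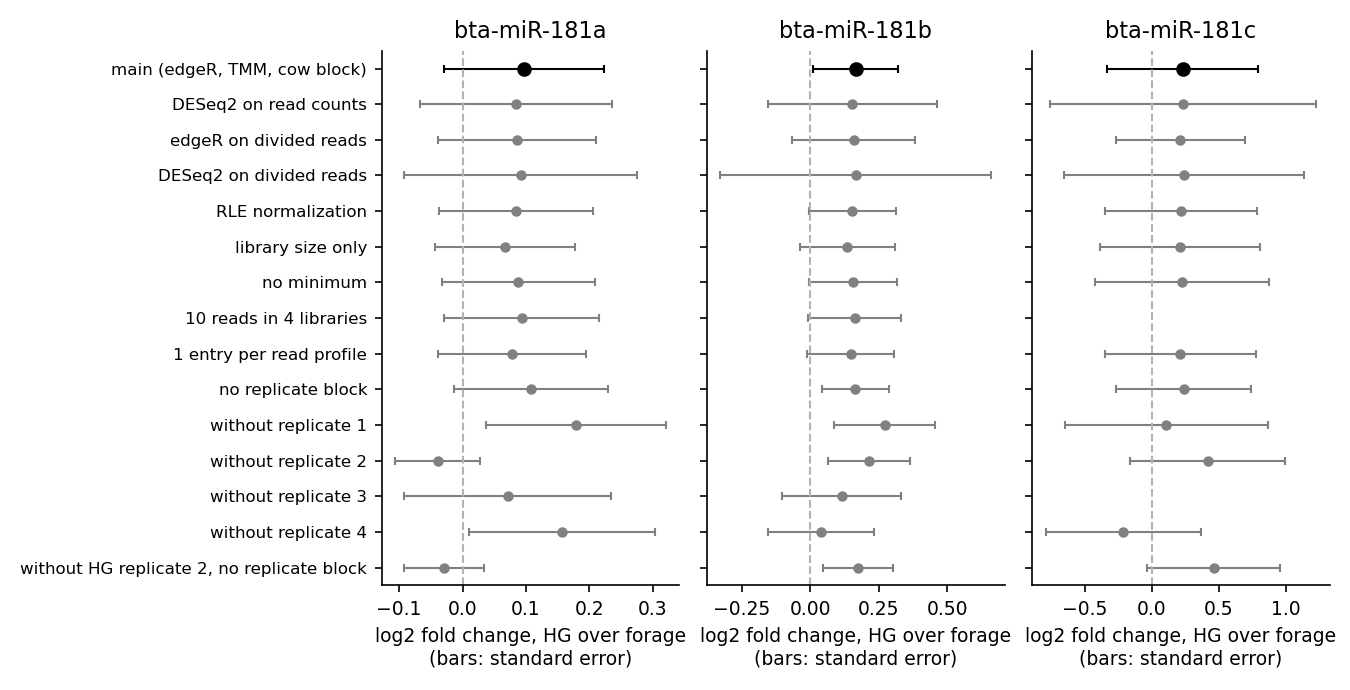
Log2 fold change of HG over forage for the 3 members tested, with its standard error, as reported (black) and under each alternative (grey). Bta-miR-181a changes sign where HG replicate 2 is left out and bta-miR-181c where replicate 4 is left out, while bta-miR-181b stays above 0. Gaps for bta-miR-181c mark fits in which it had too few reads.

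HG replicate 2 set much of the picture for bta-miR-181a. There it reached 1580 CPM, beside 1056 to 1248 CPM in the other 7 libraries. Bta-miR-181b (122 CPM, others 99.6 to 143) and bta-miR-181c (4.45 CPM, others 3.91 to 15.7) lay within the range of the others in the same library. A position above the other 7 libraries was common in this library, with 35.5% of all entries.

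Lists of miRNAs in general use as markers of cell types were followed beside the family. Leukocytes are the cells for which the family is best known, and all 8 miRNAs of their list were listed, in all 4 forage libraries at 2.51 to 2.57% of the miRNA reads in sum, in HG replicates 1, 3 and 4 at 2.49 to 2.54%, and in HG replicate 2 at 2.06%. In the diet test 0 of the 8 were called, with 3 of 8 log2 fold changes above 0 and a median of −0.02, beside 0.03 over all entries. The most abundant of them was bta-miR-142-5p, a miRNA of haematopoietic cells in general, at 7327 ± 112 CPM on forage and 6986 ± 429 CPM on HG (SD, n = 4 each), or 7199 ± 41.1 CPM on HG without replicate 2 (n = 3). Bta-miR-150, a miRNA of mature lymphocytes, stood at 3831 ± 47.0 and 3738 ± 147 CPM, or 3800 ± 97.9 CPM on HG without replicate 2. Bta-miR-223, a miRNA of granulocytes and monocytes, stood at 2299 ± 105 and 2185 ± 215 CPM, or 2286 ± 87.1 CPM on HG without it. Bta-miR-342 stood at 1291 ± 64.8 and 1279 ± 33.4 CPM (1285 ± 38.4 CPM on HG without it), a level close to that of bta-miR-181a.

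In HG replicate 2 the leukocyte list split, as all entries tested did, with 35.5% above the other 7 libraries and 30.5% below them. Bta-miR-146a (1088 CPM, others 598 to 787) and bta-miR-142-3p (926 CPM, others 626 to 713) lay above the other 7 libraries, as bta-miR-181a did. Bta-miR-142-5p, bta-miR-150, bta-miR-223, bta-miR-155 and bta-miR-146b lay below them, among them bta-miR-223 at 1881 CPM beside 2216 to 2445. Bta-miR-342 lay within the range. Bta-miR-142-3p and bta-miR-142-5p, the opposite arms of one hairpin, thus moved apart in this library.

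**Figure D4:**
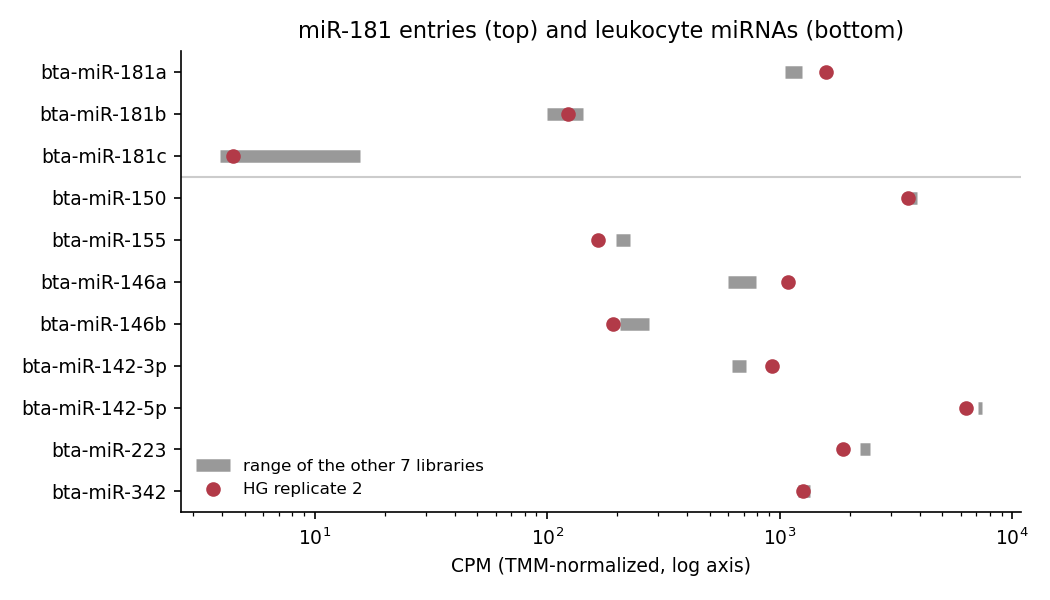
TMM-normalized CPM (log axis) in HG replicate 2 (red points) and its range over the other 7 libraries (grey bars), for 3 miR-181 entries and the 8 miRNAs of the leukocyte list. Bta-miR-181a, bta-miR-146a and bta-miR-142-3p lie above the range, 5 leukocyte miRNAs lie below it, and bta-miR-181b, bta-miR-181c and bta-miR-342 lie within it. Of all entries tested, 35.5% lie above their range in this library and 30.5% below.

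The other marker lists shifted in the same library, some up and some down. Erythrocyte miRNAs (3 of 3 listed) took 14.98% of the miRNA reads in HG replicate 2, beside 20.2 to 20.6% on forage and 19.9 to 20.2% in the other 3 HG libraries. Epithelial miRNAs (7 of 8 listed) took 3.12%, beside 2.24 to 2.26% and 2.21 to 2.28%. MiRNAs of stroma and smooth muscle (5 of 5) took 8.97%, beside 6.49 to 6.77% and 6.51 to 6.999%, and the 2 endothelial miRNAs 0.767%, beside 0.497 to 0.516% and 0.491 to 0.549%. The lists of nervous tissue (4 of 4 listed; 0.490%, others 0.667 to 0.766%) and striated muscle (4 of 4 listed; 0.465%, others 0.616 to 0.736%) were lower. In several lists a single miRNA held most reads, so their shifts are mainly those of that miRNA. These were bta-miR-451 (532591 reads, next 91159), bta-miR-143 (199669, next 15635), bta-miR-9-5p (18836, next 3071) and bta-miR-1 (20374, next 581). Bta-miR-137 had 41 reads, bta-miR-206 had 23 and bta-miR-133b had 2. The part of these shifts in the level of bta-miR-181a was not tested.

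The bovine miRNAs most alike to bta-miR-181a over the 8 libraries, among 193 outside the family with at least 10 reads in each library, were bta-miR-6529a (Pearson r = 0.94 of log2 CPM), bta-miR-34a (r = 0.94), known as a target of p53, and bta-miR-148b (r = 0.94). All 3 were high in HG replicate 2. Bta-miR-6529a had 249 CPM there, beside 32.4 to 61.1 in the other 7 libraries, bta-miR-34a had 258 beside 49.9 to 67.5, and bta-miR-148b had 795 beside 539 to 588. Over the 7 libraries without it the coefficients were 0.64, 0.66 and 0.57, bta-miR-93 came first with r = 0.93, and bta-miR-6529a ranked 10th of 193.

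For bta-miR-181b the most alike were bta-miR-29d-3p (r = 0.75), bta-miR-3613a (r = 0.75) and bta-miR-487b (r = 0.64), which gave 0.78, 0.75 and 0.79 over the 7 libraries without HG replicate 2. Over these 7 bta-miR-652 came first with r = 0.90, and bta-miR-29d-3p ranked 4th. For bta-miR-181c they were bta-miR-122, a miRNA of hepatocytes (r = 0.84), bta-miR-454 (r = 0.80) and bta-miR-215 (r = 0.78), and for bta-miR-181d bta-miR-6119-3p (r = 0.89), bta-let-7d (r = 0.78) and bta-let-7i (r = 0.77). Without HG replicate 2 the coefficients were 0.78, 0.71 and 0.70 for bta-miR-181c, and 0.93, 0.65 and 0.87 for bta-miR-181d, in the same order. The last 2 sets rest on 2 to 11 reads per library and on 4 libraries with no listed read, respectively. The 3 entries named first for each member were picked as the highest of 193 over 8 libraries. The libraries are few and share their depth and normalization, and all these coefficients are a description only.

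Correlations between the members were limited by their reads, since the spread of bta-miR-181b was about as large as its counting error and bta-miR-181c had at most 11 reads in any library. Over the 8 libraries, log2 CPM of bta-miR-181a and bta-miR-181b, which share both clusters, gave r = 0.10, and 0.07 without HG replicate 2. Bta-miR-181b and bta-miR-181c gave r = 0.35 (0.47 without HG replicate 2), and bta-miR-181a and bta-miR-181c r = −0.71 (−0.58 without HG replicate 2).

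**Figure D5:**
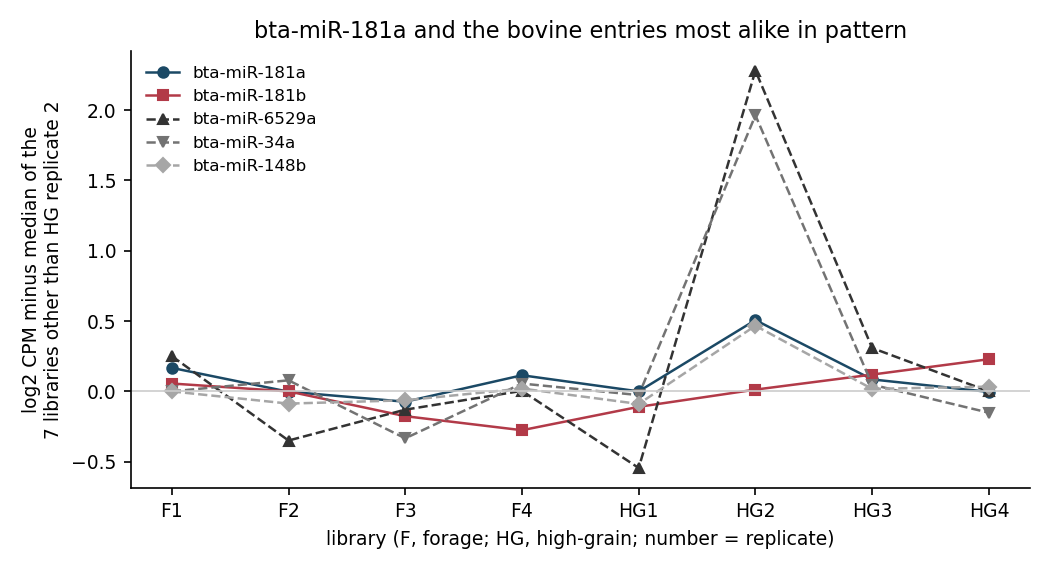
Log2 CPM of bta-miR-181a, bta-miR-181b and the 3 bovine miRNAs most alike to bta-miR-181a in each library, less the median of the 7 libraries other than HG replicate 2. The 4 miRNAs with the pattern of bta-miR-181a peak in HG replicate 2, bta-miR-6529a by 2.28 and bta-miR-34a by 1.96 on the log2 scale, whereas bta-miR-181b does not.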

How the data were processed

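Small RNA of rumen fluid was sequenced in 8 libraries, 4 per diet. For the extraction the labels name a NucleoSpin miRNA kit and the study's methods the NucleoSpin Plasma miRNA kit, and libraries were made with the NETflex Small RNA-Seq kit. The authors demultiplexed the reads (bcl2fastq 2.20), trimmed them with Skewer, discarded short and low-quality reads, and ran sRNAbench with Bowtie on UMD3.1 with bovine and human miRBase entries. For each library the authors deposited read counts per entry, in which a read counts in full at each entry it matches, and expected counts, in which it is divided among its matches. The deposited RPM of all reads left after these filters and a deposited score, RPM of miRNA reads, served to recover library totals. The authors' table of normalized signal matched the divided reads over DESeq2 size factors in each library, to within rounding to whole reads, at 377 of 377 entries.

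Entries that reached 10 reads in any 1 library were kept, unlisted entries entered as 0, and diet was tested two-sided on the read counts with edgeR 4.0.16 in R 4.3.3 (TMM, glmQLFit and glmQLFTest, model terms cow and diet, as the study had them), with Benjamini-Hochberg adjustment over all 377 entries against 0.05. DESeq2 1.42.0, divided reads (rounded), other scalings and minimums, omission of the cow block and of each replicate were alternatives, and the scripts were tested on simulated data. The rest was computed with scipy 1.17.1, pandas 2.3.3 and numpy 2.4.6 under Python 3.11.15. Log2 CPM for likeness had a prior count of 2. Intervals (95% Wilson) cover counting error only. PCR copies were not marked, so the counting error may be larger than given.

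Named were the 4 members, other miR-181 entries, the 3 bovine entries most alike to each member, and the leukocyte list with its 4 most abundant miRNAs. The leukocyte miRNAs outside the range in HG replicate 2 and the first entries without that library were named after their values were seen. Entries that share the seed were not searched, as no mature sequences were used here. Members and lists were chosen with earlier results of these data known.

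The pairing of numbers rests on the labels and the design. Deviations of same-numbered libraries from their diet mean correlated across entries at 0.0037, −0.086, 0.049 and −0.0079, and those of differently numbered ones at −0.14 to 0.22. Papillae and microbiota data were not analysed here.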

Additional observations from a re-analysis of the deposited data

Results flagged for a closer look

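Bta-miR-181a in HG replicate 2 lay far from the other 3 HG libraries, by Dixon's criterion for groups of 4. On the TMM-normalized scale it stood at 1580 CPM, and the gap to the next library was 0.851 of the range of the group. On the scale of the authors' normalized values it stood at 314.9 beside 220.6 to 236.1 in the other HG libraries, with a gap of 0.836. The 2 values are the same reads on 2 scales. In RPM of miRNA reads, 2112 beside 1701 to 1827, the gap did not pass the criterion. Of 34 groups of 4 libraries checked, 2 passed, and chance alone gives about 1 in 20.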

How the results depend on the processing

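The diet test called 0 entries in 13 of 14 alternatives. With each replicate left out in turn it called 0 to 2, the 2 being bta-miR-2285ak-5p and bta-miR-2285bh without replicate 2 (edgeR's adjusted p = 0.0281). Both had the same log2 fold change there, −7.29. The study reports both with few reads, on forage alone and as unique to single animals. No member was called under any alternative in which it was tested. The log2 fold change of bta-miR-181a was −0.039 to 0.18 with each replicate left out, negative without replicate 2, and −0.029 without HG replicate 2 and without the replicate block, an alternative chosen after seeing the data. That of bta-miR-181c was −0.21 to 0.42, negative without replicate 4. It had too few reads to be tested without replicate 3 or with 10 reads required in 4 libraries. That of bta-miR-181b kept its sign in all 14 alternatives (0.039 to 0.27). Without the replicate block the fold changes were 0.11, 0.16 and 0.24 for bta-miR-181a, bta-miR-181b and bta-miR-181c, 0 entries were called and 7 had an unadjusted p under 0.05. Bta-miR-181d was fitted only with no minimum, at −0.13 (SE 1.80).

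With divided reads the family took 0.0656% of miRNA reads on forage and 0.0682% on HG, since each read of several matches then counts in part, and within the family bta-miR-181b took 7.07% and bta-miR-181c 2.48%. Of all reads of a library after the authors' quality filters, the family took 0.0349% on forage and 0.0280% on HG. With each library left out, the share of miRNA reads was 0.191 to 0.202% on forage and 0.197 to 0.210% on HG. Depth limited bta-miR-181c and bta-miR-181d, with 53 and 18 reads over all libraries.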

Other observations

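The hairpins of bta-miR-181c and bta-miR-181d lie near those of MIR23A and MIR27A in the annotation, and these neighbours, chosen after their values were seen, differed from them widely in reads. Bta-miR-23a had 30845 reads over the 8 libraries and bta-miR-27a-3p 31195, beside 53 for bta-miR-181c and 18 for bta-miR-181d. Bta-miR-23a had 2886 to 4891 reads in single libraries and bta-miR-27a-3p 2889 to 4902. These are undivided reads, which count in full at each entry they match, so they are not the output of this locus alone. Divided reads were not compared here.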
